A study of Mus musculus with 15 samples.

Results

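The genes studied here are those that make cholesterol and fatty acids, together with the regulators that switch them. A list of 34 genes was taken, and the probe sets of the array annotated to each gene alone were looked up. Of the 34, 33 were measured and Acat2 had no probe set naming it alone, so 33 of the 18193 genes on the arrays are described. Where several probe sets named a gene, the one with the highest mean over the 15 arrays was used. By role, 7 measured genes belong to the upper mevalonate pathway, 12 lead from squalene to cholesterol, 5 are regulators or a sterol carrier, and 9 make, lengthen or desaturate fatty acids.

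The study measured total RNA on Affymetrix mouse arrays in 5 groups of 3 samples each. IP20D-3, IP14D-101 and IP14D-1 are induced pluripotent stem (iPS) cell lines, made by reprogramming embryonic fibroblasts. CL11 is an embryonic stem (ES) cell line, and MEF are the mouse embryonic fibroblasts. The cells of IP20D-3, IP14D-1, CL11 and MEF are B6D2F1, while IP14D-101 is C57x129S2, so what is particular to the line IP14D-101 and what comes with its background cannot be told apart. With 1 ES line and 3 iPS lines, a difference between lines is one between these lines and not between ES and iPS cells in general. All 4 lines grew on mitomycin C-treated MEF feeder cells with LIF at 1000 u/ml, in medium with either 15% fetal bovine serum or 20% serum replacement. Serum brings cholesterol and fatty acids in lipoproteins, and the medium of a given line is not given in the labels. Samples of a group are described by the submitters as biological replicates; p-values cover the spread between these arrays and nothing wider.

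Cells build cholesterol from acetyl-CoA through the mevalonate pathway, in which HMG-CoA is made and reduced, isoprenoid units are joined into squalene, and squalene is closed into a sterol ring that is then trimmed. Fatty acids are built from the same acetyl-CoA by acetyl-CoA carboxylase and fatty acid synthase, and are then lengthened by elongases and given double bonds by desaturases. Both pathways are driven by the SREBP transcription factors, which leave the endoplasmic reticulum with their escort SCAP when sterols are scarce and are held there by INSIG when sterols are plentiful. SREBP binds sterol regulatory elements in promoters, usually beside CCAAT boxes bound by NF-Y.

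Promoters are shown for 4 genes, 3 enzymes from different steps of the pathway and the factor Srebf2, to let the sterol element and the NF-Y boxes be seen in place. They are the 250 bases before the annotated start in RefSeq (build GRCm38.p6), written 5′ to 3′ on the strand of the gene, at chr13:119690101-119690350 on the + strand for Hmgcs1, chr8:122443423-122443672 on the − strand for Mvd, chr8:64733579-64733828 on the − strand for Msmo1 and chr15:82147019-82147268 on the + strand for Srebf2. Capitals mark the sterol regulatory element TCACCCCAC and the NF-Y box CCAAT, which reads ATTGG on the other strand.
Hmgcs1: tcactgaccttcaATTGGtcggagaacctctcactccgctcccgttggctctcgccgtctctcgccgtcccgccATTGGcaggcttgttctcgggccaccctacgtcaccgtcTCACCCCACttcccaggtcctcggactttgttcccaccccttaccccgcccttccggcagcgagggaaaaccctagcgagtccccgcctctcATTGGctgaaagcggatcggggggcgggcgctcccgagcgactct
Mvd: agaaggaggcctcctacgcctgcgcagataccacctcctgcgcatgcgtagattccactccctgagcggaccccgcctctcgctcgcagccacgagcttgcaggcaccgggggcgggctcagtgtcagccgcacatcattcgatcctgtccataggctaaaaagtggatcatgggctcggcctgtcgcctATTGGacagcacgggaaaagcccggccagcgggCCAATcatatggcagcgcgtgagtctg
Msmo1: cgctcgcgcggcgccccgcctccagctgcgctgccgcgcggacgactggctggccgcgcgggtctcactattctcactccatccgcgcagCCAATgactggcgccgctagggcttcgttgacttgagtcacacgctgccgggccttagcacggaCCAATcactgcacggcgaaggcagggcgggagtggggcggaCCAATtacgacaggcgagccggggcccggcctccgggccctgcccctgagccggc
Srebf2: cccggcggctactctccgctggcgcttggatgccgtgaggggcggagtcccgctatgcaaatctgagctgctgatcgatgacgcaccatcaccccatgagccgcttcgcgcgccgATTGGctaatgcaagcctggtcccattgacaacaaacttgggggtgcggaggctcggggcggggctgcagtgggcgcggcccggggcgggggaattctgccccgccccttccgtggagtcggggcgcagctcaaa
Hmgcs1 held TCACCCCAC at −137 and NF-Y boxes at −237, −176 and −45 from the start. Mvd held an NF-Y box at −60 and −27, Msmo1 at −160, −96 and −55, and Srebf2 at −135. RefSeq promoters were given for 27 of the 34 genes, 33 promoters in all. TCACCCCAC, searched on both strands, was in 1 of these 33 (3.03%), that of Hmgcs1, and in 163 of all 32851 promoters of the same length (0.496%). The looser TCACNCCAC, which includes the stricter motif, was also in 1 of the 33 and in 346 of all promoters (1.05%). CCAAT was in 22 of the 33 promoters (66.7%), against 33.8% of all promoters, and the GC box GGGCGG was in 24 (72.7%), against 32.7%. Such a match is a description of the letters, not of a bound site.

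**Figure D1:**
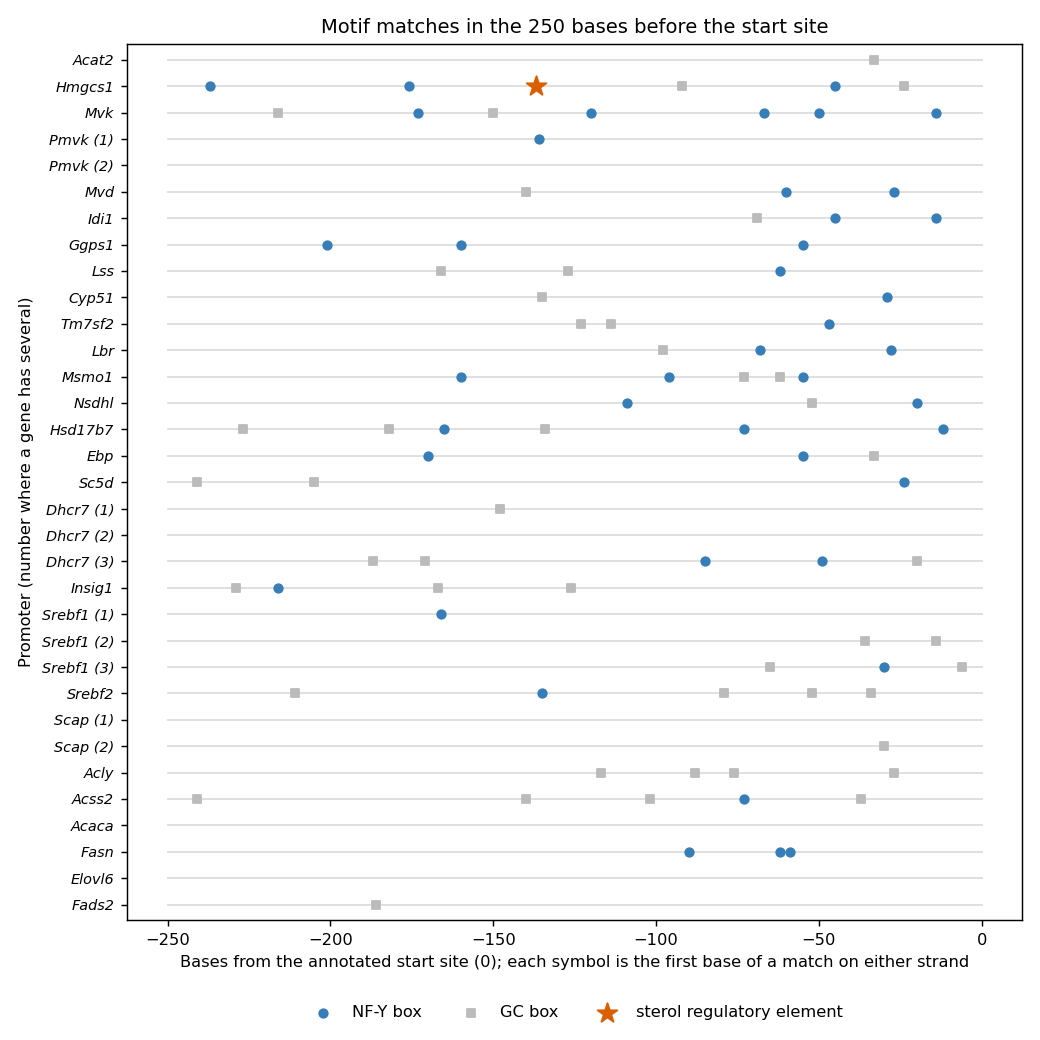
Each row is a promoter of a gene of the list, from 250 bases before the annotated start to the start, with stars for TCACCCCAC, circles for the NF-Y box CCAAT and squares for the GC box GGGCGG on either strand. The single star is in Hmgcs1, and NF-Y boxes appear in 22 of the 33 promoters.

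Levels are given as log2(signal + 16), where the signal is the authors' intensity for a probe set after each array was scaled to a common trimmed mean, and differences as log2 changes with their standard error (SE). Trimmed means before scaling ran from 11198.1 to 20466 over the 15 arrays, a ratio of 1.83, and correlations between arrays of a group ran from 0.941 to 0.954. Olfactory receptor genes, taken as silent here, set a background of 11.04 on the log2 scale, and 63.9% of all gene values lay above it. The 33 genes were above it on all 15 arrays. Of 10 pluripotency markers, 10 lay above background in each of the 4 lines and 1, Utf1, did in MEF. The summed signal of 9 measured fibroblast markers was 10306 to 15039 in IP20D-3, 10382 to 11844 in IP14D-101, 28146 to 28682 in IP14D-1 and 9712 to 10779 in CL11, against 4218920 to 4663730 in MEF. In IP14D-1, 5 of the 9, among them the collagen genes Col1a1 and Col3a1 and the matrix gene Postn, were above background, where the other lines had 2, and Lum, Dcn, Pdgfrb and Twist2 were at or below it in all 4 lines. Because RNA came from whole cultures, fewer cells of a type and less RNA per cell cannot be told apart.

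Against fibroblasts, the 4 lines shared MEF as their control. In IP20D-3, 8 of the 33 genes rose and 16 fell, where 30.4% of all 18193 genes rose and 23.7% fell (limma, adjusted p under 0.05). In IP14D-101, 15 rose and 11 fell, beside 30.4% and 24.7% of all genes. In IP14D-1, 6 rose and 17 fell, beside 29.9% and 22.9%, and in CL11, 11 rose and 15 fell, beside 30.3% and 23.8%. The median change of the 33 genes was −0.38 in IP20D-3, 0.18 in IP14D-101, −0.38 in IP14D-1 and 0.07 in CL11, and that of all genes was 0.10, 0.05, 0.13 and 0.07. Within each line the list therefore split, with some genes above and some below their fibroblast level. Without scaling of the arrays fewer rose, 2 in IP20D-3, 7 in IP14D-101, 3 in IP14D-1 and 6 in CL11, and the median was below 0 in each line (−1.02, −0.39, −0.47 and −0.34).

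**Figure D2:**
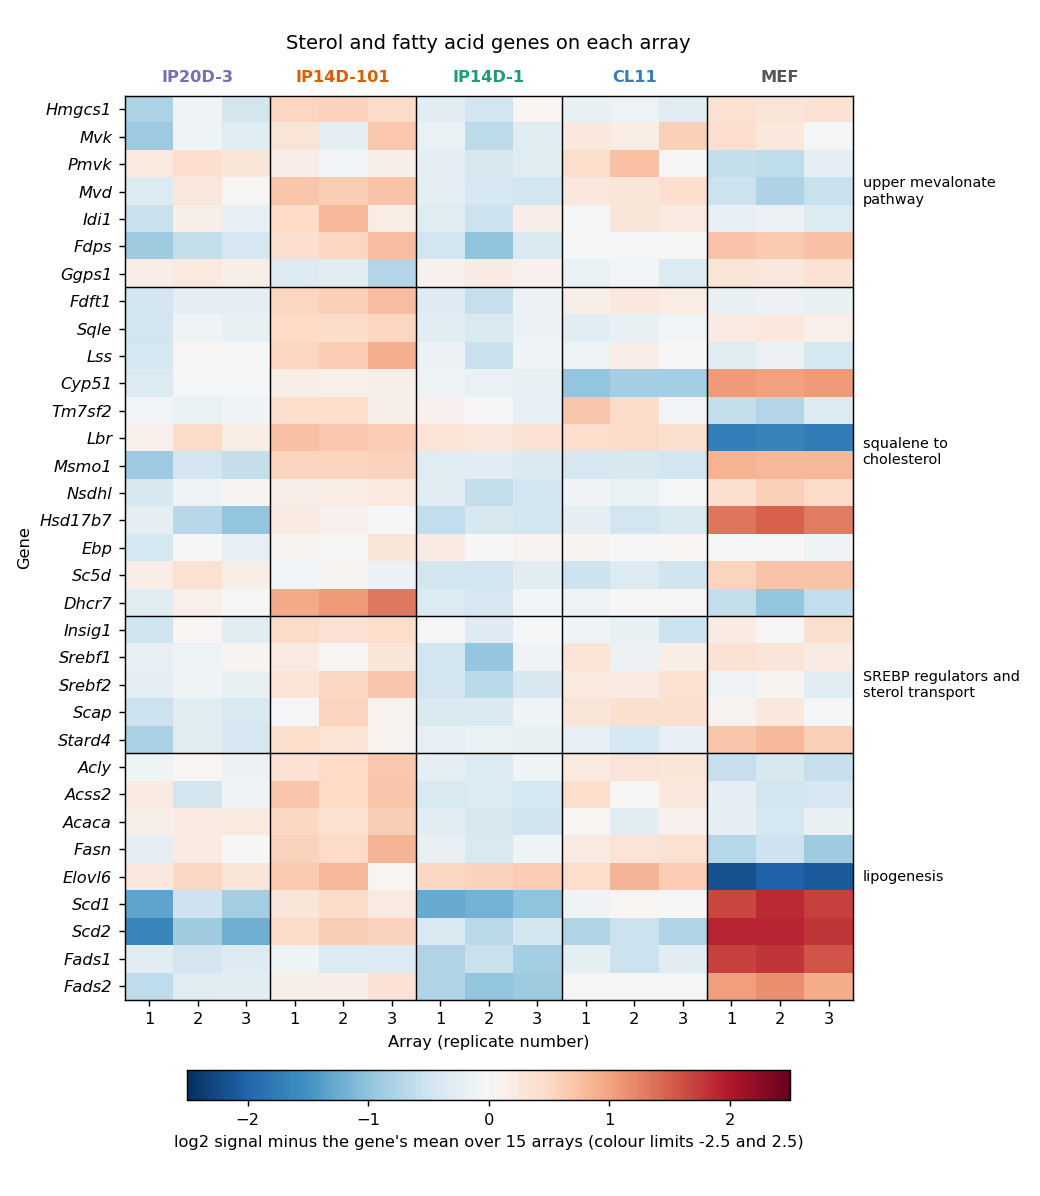
Each row is a gene and each column an array, grouped as IP20D-3, IP14D-101, IP14D-1, CL11 and MEF, and the colour is the log2 signal minus that gene's mean over 15 arrays, cut at 2.5 either way. Scd1, Scd2, Fads1 and Hsd17b7 are highest in MEF, Lbr and Elovl6 are higher in the 4 lines, and the IP14D-101 columns are redder than those of IP14D-1 for most genes.

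Among the lines, IP14D-101 stood at the top. It had the highest group mean of the 4 lines for 26 of the 33 genes and the lowest for 1, Ggps1. IP14D-1 had the lowest mean for 17 and the highest for 0, IP20D-3 the lowest for 12 and the highest for 2, and CL11 the lowest for 3 and the highest for 5. Among 8975 genes above background on all arrays, IP14D-101 was the highest line for 32.0% and IP14D-1 the lowest for 30.5%. Many of these orders rest on neighbours that did not differ beyond their spread, and the tests between lines follow the account of the genes. The choice of scaling matters for them. Scaling to a common median moved the median change of all genes to 0.32 in IP14D-101 against IP14D-1 (trimmed-mean scaling −0.04), to −0.23 in IP20D-3 against IP14D-101 (0.01), to −0.21 in IP14D-1 against CL11 (0.03), to −0.11 in IP20D-3 against CL11 (0.01), to 0.12 in IP14D-101 against CL11 (0.00) and to 0.09 in IP20D-3 against IP14D-1 (−0.02). The share of higher genes among all calls then went to 83.9% (trimmed mean 53.2%), 19.5% (46.9%), 21.6% (48.2%), 30.8% (48.2%), 72.4% (52.5%) and 72.6% (53.0%) in that order, and with no scaling it was 5.66%, 36.8%, 88.2%, 18.7%, 19.6% and 0.979%, with all-gene medians of −0.51, −0.05, 0.35, −0.20, −0.15 and −0.56. Against MEF a common median moved the all-gene median to 0.20 in IP20D-3, 0.39 in IP14D-101 and 0.29 in CL11, with the share of higher calls at 67.3% in IP14D-101 (trimmed mean 55.2%), and with no scaling that share was 31.7% in IP20D-3 (trimmed mean 56.3%), 33.3% in IP14D-101 and 39.2% in CL11 (trimmed mean 56.0%). Without scaling the all-gene medians were −0.52 in IP20D-3, −0.51 in IP14D-101, 0.05 in IP14D-1 and −0.34 in CL11 against MEF, and with quantile normalization 0.21 in IP14D-101 against MEF and 0.12 in IP14D-101 against IP14D-1. The median of the 33 genes minus that of all genes kept its sign in IP14D-101 against IP14D-1 under a common median (1.10 against 0.32) and with no scaling (0.26 against −0.51).

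The upper mevalonate pathway makes isoprenoid units. Against MEF 2 of its 7 genes rose and 3 fell in IP20D-3, 3 rose and 1 fell in IP14D-101, 0 rose and 3 fell in IP14D-1, and 2 rose and 3 fell in CL11. Hmgcs1 encodes the cytosolic HMG-CoA synthase, which joins acetoacetyl-CoA and acetyl-CoA, and its promoter was shown above. On probe set 1433445_x_at, whose suffix marks probes that can match other transcripts, its log2 signal was 16.62, 17.32 and 16.95 in IP20D-3, 17.94, 17.98 and 17.89 in IP14D-101, 17.14, 16.94 and 17.46 in IP14D-1, 17.23, 17.29 and 17.13 in CL11, against 17.80, 17.74 and 17.77 in MEF. IP14D-101 lay above all other arrays, and the arrays of IP20D-3, IP14D-1 and CL11 lay below those of MEF. The change against MEF was −0.80 ± 0.13 in IP20D-3 (limma adjusted p = 4.13e-05), 0.17 ± 0.13 in IP14D-101 (adjusted p = 0.308), −0.58 ± 0.13 in IP14D-1 (adjusted p = 0.00104) and −0.55 ± 0.13 in CL11 (adjusted p = 0.00179). Fdps encodes farnesyl diphosphate synthase, which joins isoprenoid units into the precursor of both squalene and protein prenylation. Its log2 signal (1423418_at) was 15.62, 15.90 and 16.08 in IP20D-3, 16.92, 17.03 and 17.28 in IP14D-101, 16.02, 15.50 and 16.13 in IP14D-1, 16.50, 16.45 and 16.49 in CL11, against 17.22, 17.16 and 17.24 in MEF. The IP14D-101 and MEF arrays overlapped at the top, CL11 came next without overlap, and IP20D-3 and IP14D-1 overlapped below it. Fdps was −1.34 ± 0.14 in IP20D-3 against MEF (adjusted p = 7.45e-08), −0.13 ± 0.14 in IP14D-101 (adjusted p = 0.469), −1.32 ± 0.14 in IP14D-1 (adjusted p = 9.4e-08) and −0.73 ± 0.14 in CL11 (adjusted p = 0.00014). When all probe sets of Fdps were averaged, its change in IP14D-1 and in CL11 turned to 0.29 and 0.08. The only other probe set of Fdps lay below background in each group, with means from 6.49 in MEF to 8.39 in IP14D-1. The averaged values therefore mix the signal of Fdps with background.

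Mvd and Pmvk act between mevalonate and the first isoprenoid unit, Pmvk as phosphomevalonate kinase and Mvd as the decarboxylase after it, and both had higher means in the 4 lines than in fibroblasts. Mvd (1417303_at) had a log2 signal of 13.96, 14.58 and 14.32 in IP20D-3, 14.98, 14.92 and 14.999 in IP14D-101, 14.06, 13.86 and 13.82 in IP14D-1, 14.55, 14.59 and 14.71 in CL11, against 13.76, 13.53 and 13.74 in MEF. The fibroblast arrays were below those of every line, and IP14D-101 was above all others. Its change against MEF was 0.61 ± 0.13 in IP20D-3 (adjusted p = 0.000575), 1.29 ± 0.13 in IP14D-101 (adjusted p = 7.49e-08), 0.24 ± 0.13 in IP14D-1 (adjusted p = 0.149) and 0.94 ± 0.13 in CL11 (adjusted p = 4.94e-06), and without scaling that in IP20D-3 was −0.03. Pmvk (1427893_a_at) had a log2 signal of 14.40, 14.57 and 14.46 in IP20D-3, 14.32, 14.08 and 14.31 in IP14D-101, 13.93, 13.76 and 13.86 in IP14D-1, 14.59, 14.90 and 14.18 in CL11, against 13.56, 13.52 and 13.93 in MEF. IP20D-3, IP14D-101 and CL11 were above MEF on all arrays, while IP14D-1 overlapped MEF. The change against MEF was 0.81 ± 0.15 in IP20D-3 (adjusted p = 0.000162), 0.56 ± 0.15 in IP14D-101 (adjusted p = 0.00399), 0.18 ± 0.15 in IP14D-1 (adjusted p = 0.356) and 0.89 ± 0.15 in CL11 (adjusted p = 6.1e-05), and without scaling that in IP14D-101 was −0.01. The remaining genes of the group were Mvk (mevalonate kinase), Idi1 (isopentenyl diphosphate isomerase) and Ggps1 (geranylgeranyl diphosphate synthase, on the branch to protein prenylation), whose group means ranged over 0.79, 0.74 and 0.76 log2. Ggps1 had its lowest group mean in IP14D-101 and its highest in MEF. It was 14.75 ± 0.05 in IP20D-3, 14.12 ± 0.25 in IP14D-101, 14.70 ± 0.06 in IP14D-1, 14.37 ± 0.14 in CL11 and 14.88 ± 0.05 in MEF (mean ± SD, n = 3).

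**Figure D3:**
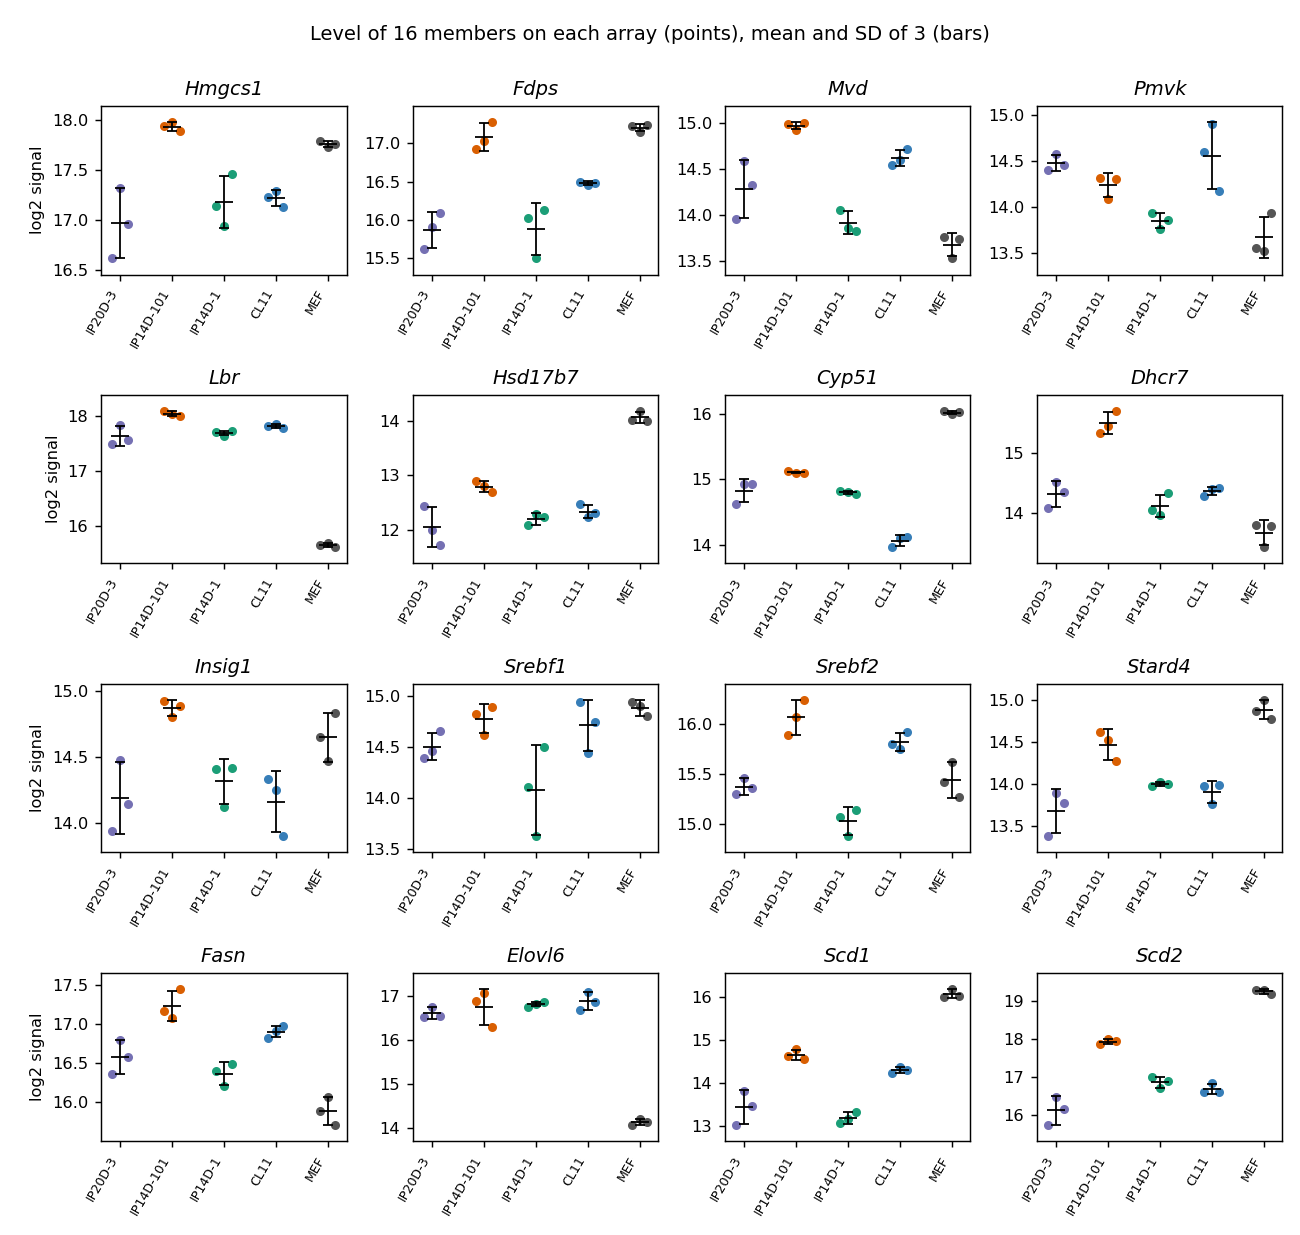
Points give the log2 signal of 16 genes on each array in IP20D-3, IP14D-101, IP14D-1, CL11 and MEF, with the mean and SD of 3 arrays as bars, and each panel has its own scale that does not start at 0. For Hmgcs1, Mvd, Dhcr7 and Insig1 the mean of IP14D-101 is the highest of the 5 groups, and for Scd1, Scd2 and Hsd17b7 that of MEF is.

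From squalene to cholesterol, the genes went in opposite directions against fibroblasts. Of the 12, 2 rose and 6 fell in IP20D-3, 6 rose and 5 fell in IP14D-101, 3 rose and 6 fell in IP14D-1, and 4 rose and 6 fell in CL11, with medians of −0.30, 0.24, −0.32 and −0.15. Lbr encodes the lamin B receptor, an inner nuclear membrane protein that also carries sterol C14-reductase activity. Its log2 signal (1415829_at) was 17.51, 17.85 and 17.56 in IP20D-3, 18.10, 18.05 and 18.01 in IP14D-101, 17.71, 17.65 and 17.73 in IP14D-1, 17.82, 17.86 and 17.78 in CL11, against 15.66, 15.70 and 15.62 in MEF. The lines lay well above MEF, and IP14D-101 lay above the other lines. The change was 1.98 ± 0.08 in IP20D-3 (adjusted p = 7.58e-14), 2.40 ± 0.08 in IP14D-101 (adjusted p = 5.12e-15), 2.04 ± 0.08 in IP14D-1 (adjusted p = 6.25e-14) and 2.16 ± 0.08 in CL11 (adjusted p = 2.28e-14). Tm7sf2, the other sterol C14-reductase, had 12.70 ± 0.05 in IP20D-3, 13.17 ± 0.18 in IP14D-101, 12.79 ± 0.16 in IP14D-1 and 13.19 ± 0.38 in CL11, against 12.27 ± 0.19 in MEF (mean ± SD, n = 3). Dhcr7 encodes the reductase of the last step of 1 route to cholesterol. Its log2 signal (1448619_at) was 14.09, 14.51 and 14.35 in IP20D-3, 15.34, 15.46 and 15.70 in IP14D-101, 14.05, 13.97 and 14.32 in IP14D-1, 14.29, 14.40 and 14.42 in CL11, against 13.79, 13.43 and 13.79 in MEF. MEF was the lowest group, IP14D-101 stood far above the rest, and the other lines overlapped. Dhcr7 rose by 0.65 ± 0.14 in IP20D-3 (adjusted p = 0.000458), 1.83 ± 0.14 in IP14D-101 (adjusted p = 9e-10), 0.44 ± 0.14 in IP14D-1 (adjusted p = 0.00988) and 0.70 ± 0.14 in CL11 (adjusted p = 0.000212). The call in IP14D-1 was lost without IP14D-1 replicate 3 (0.34, adjusted p = 0.0659) or MEF replicate 2 (0.32, adjusted p = 0.0674).

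Cyp51 and Hsd17b7 were among those that fell. Cyp51 encodes lanosterol 14-demethylase, the cytochrome P450 that acts first on the closed ring, and had a log2 signal (1450646_at) of 14.62, 14.93 and 14.93 in IP20D-3, 15.12, 15.10 and 15.10 in IP14D-101, 14.83, 14.80 and 14.78 in IP14D-1, 13.97, 14.11 and 14.12 in CL11, against 16.04, 15.99 and 16.03 in MEF. MEF was highest, CL11 lowest, and the iPS lines lay between them, with IP14D-101 above the others. On another Cyp51 probe set above background in each group, the mean of IP14D-101 (13.82) was below that of IP14D-1 (13.96). The change against MEF was −1.19 ± 0.09 in IP20D-3 (adjusted p = 8e-10), −0.91 ± 0.09 in IP14D-101 (adjusted p = 3.5e-08), −1.21 ± 0.09 in IP14D-1 (adjusted p = 6.54e-10) and −1.95 ± 0.09 in CL11 (adjusted p = 6.56e-13). Hsd17b7 encodes a 3-ketosteroid reductase that takes part in removing methyl groups at carbon 4. On probe set 1457248_x_at, whose probes can match other transcripts, its log2 signal was 12.45, 11.997 and 11.71 in IP20D-3, 12.89, 12.81 and 12.69 in IP14D-101, 12.08, 12.29 and 12.24 in IP14D-1, 12.47, 12.23 and 12.31 in CL11, against 14.02, 14.18 and 13.99 in MEF. The lines lay below MEF without overlap, and IP14D-101 lay above the other lines. On this probe set IP14D-101 minus CL11 was 0.46 (limma adjusted p = 0.155). Without probe sets that can match other transcripts it was 0.06 (limma adjusted p = 0.936). Hsd17b7 was −2.01 ± 0.20 in IP20D-3 (adjusted p = 3.88e-08), −1.27 ± 0.20 in IP14D-101 (adjusted p = 1.5e-05), −1.86 ± 0.20 in IP14D-1 (adjusted p = 1.24e-07) and −1.73 ± 0.20 in CL11 (adjusted p = 3.1e-07). Msmo1 and Nsdhl, the other demethylation enzymes at carbon 4, and the desaturase Sc5d also fell in each line. Msmo1 was −1.51 in IP20D-3, −0.29 in IP14D-101, −1.16 in IP14D-1 and −1.28 in CL11, and Nsdhl was −0.65, −0.30, −0.94 and −0.60 in the same order. In IP14D-101 both turned to slightly positive values when arrays were scaled to a common median, 0.06 for Msmo1 and 0.05 for Nsdhl. The Nsdhl call there was lost without IP14D-101 replicate 1 (adjusted p = 0.0776), IP14D-101 replicate 2 (adjusted p = 0.059), MEF replicate 2 (adjusted p = 0.105) or MEF replicate 3 (adjusted p = 0.0529), with values from −0.30 to −0.25.

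At the entry to this branch stand Fdft1, Sqle and Lss. Sqle, the squalene epoxidase, was 15.60 ± 0.19 in IP20D-3, 16.36 ± 0.04 in IP14D-101, 15.59 ± 0.12 in IP14D-1 and 15.68 ± 0.11 in CL11, against 16.06 ± 0.07 in MEF (mean ± SD, n = 3). It rose in IP14D-101 (0.30, adjusted p = 0.0108) and fell in IP20D-3 (−0.46, adjusted p = 0.000351), IP14D-1 (−0.47, adjusted p = 0.00026) and CL11 (−0.38, adjusted p = 0.00182), and without scaling the rise in IP14D-101 turned to −0.27. Fdft1, the squalene synthase, was 15.53 ± 0.15 in IP20D-3, 16.48 ± 0.13 in IP14D-101, 15.50 ± 0.21 in IP14D-1, 16.05 ± 0.06 in CL11 and 15.67 ± 0.02 in MEF. It rose in IP14D-101 by 0.80 and in CL11 by 0.37, and did not pass in IP20D-3 (−0.15) or IP14D-1 (−0.18). The rise in CL11 turned to −0.04 without scaling and to −0.11 with probe sets averaged. That average includes probe sets of Fdft1 that lay below background in each group. Its other probe set above background had means of 15.96 in CL11 and 15.57 in MEF. Lss, the lanosterol synthase, rose in IP14D-101 by 0.98 (adjusted p = 1.53e-05), but its second probe set gave −0.11 there, and it did not pass in IP20D-3 (0.16), IP14D-1 (0.02) or CL11 (0.30). Ebp, the sterol isomerase, had the narrowest range of group means of the list, 0.35 log2, and passed in none of the comparisons with MEF (changes from −0.17 in IP20D-3 to 0.18 in IP14D-101).

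**Figure D4:**
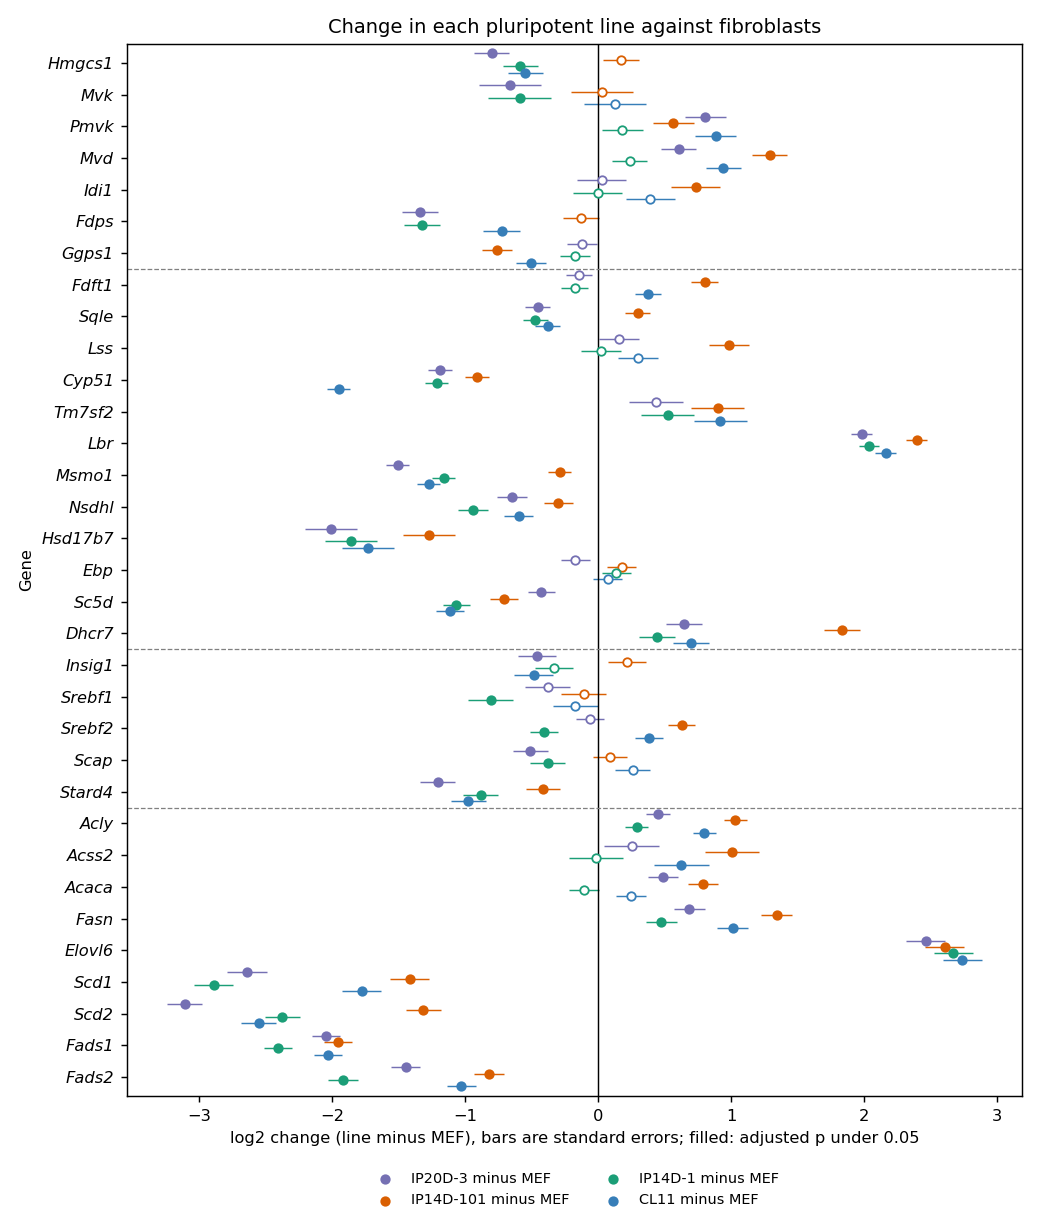
Points give the log2 change of each gene against MEF in IP20D-3, IP14D-101, IP14D-1 and CL11, with standard errors as bars, filled where the limma adjusted p was under 0.05 and grouped by role with dashed lines. Elovl6 and Lbr lie near 2 to 3 to the right of 0, and Scd1, Scd2 and Fads1 lie left of −1 in all 4 lines.

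Of the regulators and the sterol carrier, Stard4 fell in each line and Srebf2 alone was called in both directions. Against MEF 0 of the 5 rose and 3 fell in IP20D-3, 1 rose and 1 fell in IP14D-101, 0 rose and 4 fell in IP14D-1, and 1 rose and 2 fell in CL11. Srebf2 encodes SREBP2, the factor that acts mainly on cholesterol genes, and had a log2 signal (1426744_at) of 15.31, 15.47 and 15.36 in IP20D-3, 15.89, 16.07 and 16.24 in IP14D-101, 15.07, 14.88 and 15.15 in IP14D-1, 15.80, 15.75 and 15.92 in CL11, against 15.43, 15.63 and 15.27 in MEF. IP14D-101 and CL11 overlapped at the top, IP14D-1 was lowest, and IP20D-3 overlapped MEF. The change against MEF was −0.06 ± 0.10 in IP20D-3 (adjusted p = 0.662), 0.63 ± 0.10 in IP14D-101 (adjusted p = 3.9e-05), −0.41 ± 0.10 in IP14D-1 (adjusted p = 0.00276) and 0.38 ± 0.10 in CL11 (adjusted p = 0.00416). Without scaling the rise in CL11 turned to −0.03. Srebf1 encodes SREBP1, which acts mainly on fatty acid genes, and had a log2 signal (1426690_a_at) of 14.39, 14.47 and 14.66 in IP20D-3, 14.83, 14.62 and 14.89 in IP14D-101, 14.11, 13.62 and 14.50 in IP14D-1, 14.94, 14.45 and 14.75 in CL11, against 14.95, 14.91 and 14.80 in MEF. IP14D-1 had the lowest mean and the widest spread and reached into the range of IP20D-3 and CL11. IP14D-101 and CL11 overlapped MEF, and IP20D-3 and IP14D-1 lay below it. Srebf1 was −0.38 ± 0.17 in IP20D-3 (adjusted p = 0.067), −0.11 ± 0.17 in IP14D-101 (adjusted p = 0.633), −0.81 ± 0.17 in IP14D-1 (adjusted p = 0.000433) and −0.17 ± 0.17 in CL11 (adjusted p = 0.431), so that it passed in IP14D-1 alone among the 4 comparisons. Scap, the escort of both factors, had a log2 signal (1433520_at) of 14.33, 14.58 and 14.50 in IP20D-3, 14.83, 15.42 and 14.95 in IP14D-101, 14.50, 14.51 and 14.79 in IP14D-1, 15.17, 15.26 and 15.28 in CL11, against 14.96, 15.13 and 14.85 in MEF. IP20D-3 and IP14D-1 lay below CL11 and MEF, while IP14D-101 overlapped MEF. It was −0.51 ± 0.13 in IP20D-3 (adjusted p = 0.00258), 0.09 ± 0.13 in IP14D-101 (adjusted p = 0.607), −0.38 ± 0.13 in IP14D-1 (adjusted p = 0.0207) and 0.26 ± 0.13 in CL11 (adjusted p = 0.11). The Scap call in IP14D-1 was lost without IP14D-1 replicate 1 (−0.33, adjusted p = 0.0789), IP14D-1 replicate 2 (−0.33, adjusted p = 0.0764) or MEF replicate 2 (−0.30, adjusted p = 0.0951).

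Insig1 and Stard4 are both known targets of SREBP, the first an anchor that holds SCAP back and the second a carrier of cholesterol between membranes. The log2 signal of Insig1 (1454671_at) was 13.94, 14.48 and 14.15 in IP20D-3, 14.92, 14.80 and 14.88 in IP14D-101, 14.41, 14.12 and 14.41 in IP14D-1, 14.34, 14.25 and 13.90 in CL11, against 14.65, 14.47 and 14.83 in MEF. IP14D-101 overlapped MEF at the top, and the other lines had lower means, overlapped each other and, for IP20D-3 alone, just reached the lowest MEF array. Insig1 was −0.46 ± 0.14 in IP20D-3 (adjusted p = 0.0105), 0.22 ± 0.14 in IP14D-101 (adjusted p = 0.222), −0.33 ± 0.14 in IP14D-1 (adjusted p = 0.0603) and −0.49 ± 0.14 in CL11 (adjusted p = 0.00739). Its call in IP20D-3 was lost without IP20D-3 replicate 1 (−0.34, adjusted p = 0.0712) or MEF replicate 3 (−0.37, adjusted p = 0.0588), and that in CL11 without CL11 replicate 3 (−0.36, adjusted p = 0.0572). Stard4 (1429240_at) had a log2 signal of 13.37, 13.88 and 13.76 in IP20D-3, 14.61, 14.52 and 14.26 in IP14D-101, 13.97, 14.02 and 13.998 in IP14D-1, 13.97, 13.75 and 13.98 in CL11, against 14.87, 14.997 and 14.78 in MEF. MEF was above every line, and IP14D-101 was above the other lines. The change was −1.21 ± 0.13 in IP20D-3 (adjusted p = 1.89e-07), −0.41 ± 0.13 in IP14D-101 (adjusted p = 0.0115), −0.88 ± 0.13 in IP14D-1 (adjusted p = 1.08e-05) and −0.98 ± 0.13 in CL11 (adjusted p = 2.93e-06). That in IP14D-101 was lost without IP14D-101 replicate 3 (−0.31, adjusted p = 0.062) or MEF replicate 2 (−0.36, adjusted p = 0.0536).

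Among the fatty acid genes, Fasn, Elovl6 and Acly rose against fibroblasts in each line. Of the 9 genes, 4 rose and 4 fell in IP20D-3, 5 rose and 4 fell in IP14D-101, 3 rose and 4 fell in IP14D-1, and 4 rose and 4 fell in CL11. Fasn, the fatty acid synthase that builds palmitate, had a log2 signal (1423828_at) of 16.36, 16.79 and 16.58 in IP20D-3, 17.17, 17.08 and 17.45 in IP14D-101, 16.40, 16.20 and 16.49 in IP14D-1, 16.82, 16.91 and 16.97 in CL11, against 15.88, 16.07 and 15.71 in MEF. MEF was the lowest group, and among the lines IP14D-101 was highest and IP14D-1 overlapped IP20D-3. Fasn rose by 0.69 ± 0.12 in IP20D-3 (adjusted p = 5.02e-05), 1.34 ± 0.12 in IP14D-101 (adjusted p = 8.61e-09), 0.48 ± 0.12 in IP14D-1 (adjusted p = 0.00186) and 1.01 ± 0.12 in CL11 (adjusted p = 4.31e-07). Elovl6, the elongase that takes palmitate to stearate, had a log2 signal (1417404_at) of 16.51, 16.76 and 16.54 in IP20D-3, 16.88, 17.07 and 16.28 in IP14D-101, 16.76, 16.81 and 16.87 in IP14D-1, 16.69, 17.09 and 16.87 in CL11, against 14.07, 14.21 and 14.14 in MEF. The lines overlapped each other and lay more than 2 log2 units above MEF on every array. Elovl6 rose by 2.46 ± 0.15 in IP20D-3 (adjusted p = 3.05e-11), 2.61 ± 0.15 in IP14D-101 (adjusted p = 1.33e-11), 2.67 ± 0.15 in IP14D-1 (adjusted p = 1.11e-11) and 2.74 ± 0.15 in CL11 (adjusted p = 6.77e-12), and no comparison between lines called it. Acly, which releases acetyl-CoA from citrate, rose by 0.45 in IP20D-3, 1.03 in IP14D-101, 0.29 in IP14D-1 and 0.80 in CL11. Its rise in IP20D-3 turned to −0.19 without scaling, and its call in IP14D-1 was lost without IP14D-1 replicate 3 (0.22, adjusted p = 0.0587). Acss2, which activates acetate, was 0.25 in IP20D-3 (adjusted p = 0.337), 1.01 in IP14D-101 (adjusted p = 0.000322), −0.02 in IP14D-1 (adjusted p = 0.958) and 0.63 in CL11 (adjusted p = 0.0144). The value in CL11 was −0.016 with probe sets averaged, and its call was lost without CL11 replicate 1 (0.54, adjusted p = 0.0625). Acaca, the acetyl-CoA carboxylase, was 0.49 in IP20D-3 (adjusted p = 0.00121), 0.79 in IP14D-101 (adjusted p = 7.5e-06), −0.11 in IP14D-1 (adjusted p = 0.48) and 0.25 in CL11 (adjusted p = 0.0785), and that in IP20D-3 was −0.15 without scaling.

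The desaturases fell in each of the 4 lines, which share the MEF arrays as their control. Scd1 and Scd2 encode stearoyl-CoA desaturases, which turn stearate into oleate. The log2 signal of Scd1 (1415964_at) was 13.01, 13.80 and 13.46 in IP20D-3, 14.62, 14.77 and 14.56 in IP14D-101, 13.06, 13.15 and 13.32 in IP14D-1, 14.22, 14.36 and 14.28 in CL11, against 15.99, 16.18 and 16.03 in MEF. MEF lay above all lines, IP14D-101 came next, CL11 after it, and IP20D-3 and IP14D-1 overlapped at the bottom. Scd1 was −2.64 ± 0.15 in IP20D-3 (adjusted p = 1.48e-11), −1.42 ± 0.15 in IP14D-101 (adjusted p = 1.05e-07), −2.89 ± 0.15 in IP14D-1 (adjusted p = 4.76e-12) and −1.78 ± 0.15 in CL11 (adjusted p = 4.49e-09). The log2 signal of Scd2 (1415822_at) was 15.75, 16.48 and 16.15 in IP20D-3, 17.85, 17.98 and 17.94 in IP14D-101, 16.99, 16.70 and 16.90 in IP14D-1, 16.61, 16.84 and 16.61 in CL11, against 19.28, 19.28 and 19.16 in MEF. MEF was again highest and IP14D-101 next, IP14D-1 and CL11 overlapped, and IP20D-3 was lowest. Scd2 was −3.11 ± 0.13 in IP20D-3 (adjusted p = 1.98e-13), −1.31 ± 0.13 in IP14D-101 (adjusted p = 4.64e-08), −2.38 ± 0.13 in IP14D-1 (adjusted p = 1.15e-11) and −2.55 ± 0.13 in CL11 (adjusted p = 3.55e-12), the widest range of group means of the 33 genes (3.11 log2). Fads1 and Fads2 encode the delta-5 and delta-6 desaturases of polyunsaturated fatty acids. Fads1 (1423680_at) had a log2 signal of 14.98, 14.81 and 14.94 in IP20D-3, 15.15, 14.92 and 14.92 in IP14D-101, 14.51, 14.71 and 14.41 in IP14D-1, 15.03, 14.73 and 15.004 in CL11, against 16.96, 17.05 and 16.85 in MEF. The lines lay about 2 log2 units below MEF and close to each other, with IP14D-1 the lowest. The change was −2.05 ± 0.10 in IP20D-3 (adjusted p = 3.62e-12), −1.96 ± 0.10 in IP14D-101 (adjusted p = 6.64e-12), −2.41 ± 0.10 in IP14D-1 (adjusted p = 4.14e-13) and −2.03 ± 0.10 in CL11 (adjusted p = 4.02e-12). Fads2 fell less far, with changes of −1.45 in IP20D-3, −0.82 in IP14D-101, −1.92 in IP14D-1 and −1.03 in CL11. Of 7 measured adipocyte markers, Pparg, Fabp4, Adipoq, Cd36 and Cidec were at or below background in each of the 5 groups.

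Between lines, IP14D-101 was set against the ES line CL11 first. In this comparison 13 of the 33 genes rose and 0 fell, where 6.04% of all genes rose and 5.47% fell (limma, adjusted p under 0.05). At an unadjusted p under 0.05, 21 of the 33 were higher and 1 was lower (limma). The matching shares of all genes were not counted, so these counts have no baseline here. The median change was 0.35 for the 33 genes and 0.00 for all genes. By role, 2 of 7 upper mevalonate genes rose (Hmgcs1 0.72 ± 0.13, adjusted p = 0.00155, and Fdps 0.60 ± 0.14, adjusted p = 0.00696). Of the 12 genes from squalene to cholesterol 7 rose, led by Dhcr7 at 1.13 ± 0.14 (adjusted p = 2.31e-05), Cyp51 at 1.04 ± 0.09 (adjusted p = 4.55e-07) and Msmo1 at 0.99 ± 0.09 (adjusted p = 6.4e-07). Sqle (0.68), Lss (0.68), Fdft1 (0.43) and Sc5d (0.41) rose as well. The SREBP targets Insig1 (0.70 ± 0.14, adjusted p = 0.00322) and Stard4 (0.56 ± 0.13, adjusted p = 0.00829) rose. On the probe sets used the factors themselves did not pass, with Srebf2 at 0.24 ± 0.10 (adjusted p = 0.159) and Srebf1 at 0.06 ± 0.17 (adjusted p = 0.878). For Srebf2 this depended on the probe set. Its other probe set had means of 15.70 in IP14D-101 and 15.28 in CL11, and with probe sets averaged Srebf2 passed (0.33, limma adjusted p = 0.0448). In lipogenesis Scd2 (1.24 ± 0.13, adjusted p = 4.79e-06) and Acaca (0.54, adjusted p = 0.00419) rose, and Fasn was 0.33 ± 0.12 (adjusted p = 0.0811). The Sc5d call was lost without CL11 replicate 1 (0.37, adjusted p = 0.0644), CL11 replicate 3 (0.39, adjusted p = 0.0595) or IP14D-101 replicate 2 (0.34, adjusted p = 0.066), and that of Stard4 without CL11 replicate 2 (0.49, adjusted p = 0.0507). With a common median for scaling 13 genes rose and 0 fell, and with no scaling 7 rose and 0 fell.

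IP20D-3 and IP14D-1 had more genes below CL11 than above it, except IP14D-1 without scaling. In IP20D-3, 3 genes rose and 9 fell against CL11, beside 10.5% and 11.3% of all genes, with a median of −0.25. Those that rose were Cyp51 (0.76), Sc5d (0.69) and Ggps1 (0.38), and those that fell furthest were Scd1 (−0.86 ± 0.15, adjusted p = 0.000307), Mvk (−0.79 ± 0.24, adjusted p = 0.0214) and Scap (−0.77 ± 0.13, adjusted p = 0.000294). In IP14D-1, 2 rose and 16 fell, beside 11.7% and 12.6% of all genes, with a median of −0.35. Scd1 (−1.11 ± 0.15, adjusted p = 2.37e-05), Fads2 (−0.89 ± 0.11, adjusted p = 1.25e-05) and Srebf2 (−0.79 ± 0.10, adjusted p = 2.31e-05) were lowest, and Fasn was −0.53 ± 0.12 (adjusted p = 0.00236). Cyp51 (0.74) and Ggps1 (0.33) were the 2 that rose, and the Ggps1 call was lost in 5 of the 6 fits without 1 array, with values from 0.26 to 0.35 (CL11 replicate 1 or 3, or any IP14D-1 array). In IP20D-3 the Ggps1 call was lost without CL11 replicate 3 (0.30, adjusted p = 0.105) or IP20D-3 replicate 2 (0.35, adjusted p = 0.0658). Leaving out CL11 replicate 1 brought the 18 calls of IP14D-1 down to 11. The directions depend on scaling for IP14D-1, in which 1 gene rose and 21 fell with a common median and 5 rose and 3 fell without scaling, and for IP20D-3 the counts were 2 and 12, and 2 and 18. Scap turned to 0.56 in IP14D-1 and 0.34 in IP20D-3 when its probe sets were averaged. The only other probe set of Scap lay below background in each group, with means from 7.35 in CL11 to 10.03 in MEF. The call of Mvk in IP20D-3 was lost without CL11 replicate 3 (−0.66, adjusted p = 0.104) or IP20D-3 replicate 1 (−0.56, adjusted p = 0.131).

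**Figure D5:**
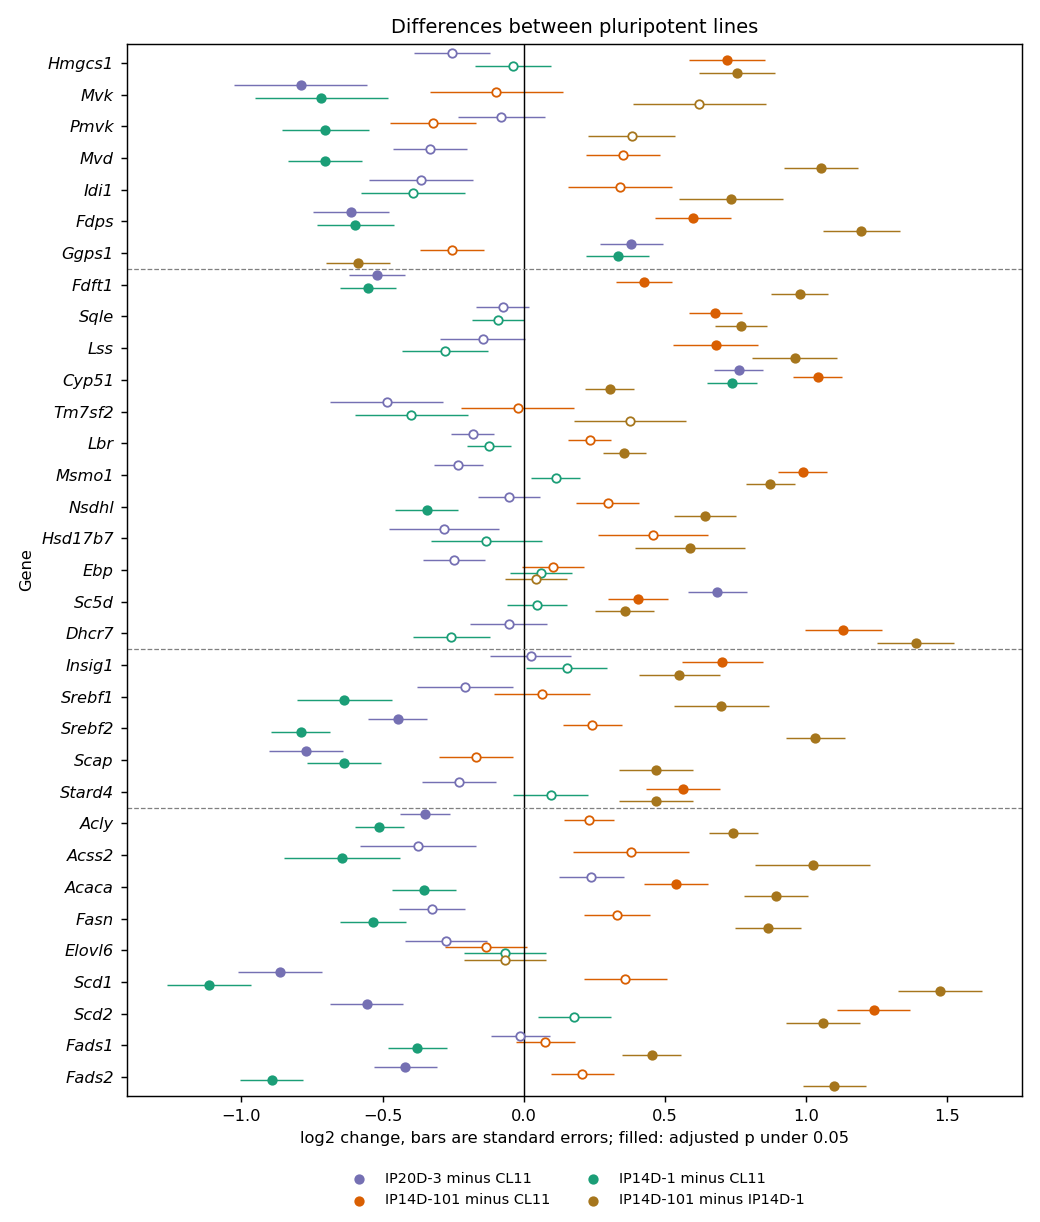
Points give the log2 change of each gene in IP20D-3, IP14D-101 and IP14D-1 against CL11, and in IP14D-101 against IP14D-1, with standard errors as bars, filled where the limma adjusted p was under 0.05. Points of IP14D-101 minus IP14D-1 lie right of 0 for 31 of 33 genes (Ggps1 and Elovl6 do not), and no filled point of IP14D-101 minus CL11 lies left of 0.

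IP14D-101 was then set against IP14D-1. There 27 of the 33 genes rose and 1, Ggps1, fell, where 14.9% of all genes rose and 13.1% fell, with medians of 0.74 for the 33 genes and −0.04 for all genes. The changes that led were Scd1 at 1.47 ± 0.15 (adjusted p = 1.01e-06), Dhcr7 at 1.39 ± 0.14 (adjusted p = 8.12e-07), Fdps at 1.20 ± 0.14 (adjusted p = 3.87e-06) and Fads2 at 1.10 ± 0.11 (adjusted p = 1.12e-06). All 5 genes of the regulator group passed, Srebf2 at 1.03 ± 0.10 (adjusted p = 1.11e-06), Srebf1 at 0.70 ± 0.17 (adjusted p = 0.00409), Insig1 at 0.55 ± 0.14 (adjusted p = 0.00713), Stard4 at 0.47 and Scap at 0.47. Fasn differed by 0.87 ± 0.12 (adjusted p = 2.31e-05) and Scd2 by 1.06 ± 0.13 (adjusted p = 8e-06). Mvk, Pmvk, Tm7sf2, Ebp and Elovl6 did not pass, with changes from −0.07 for Elovl6 to 0.62 for Mvk. With a common median 31 genes rose and 0 fell, and without scaling 11 rose and 3 fell, with Stard4 and Scap at −0.01. The call of Scap was lost without IP14D-1 replicate 1 (0.42, adjusted p = 0.0524), IP14D-1 replicate 2 (0.42, adjusted p = 0.0528) or IP14D-101 replicate 2 (0.29, adjusted p = 0.0744), and that of Stard4 without IP14D-101 replicate 1 (0.39, adjusted p = 0.0581).

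IP20D-3 was set against IP14D-101 next, a comparison that shares the IP14D-101 arrays with the one before. Of the 33 genes 1, Ggps1, rose and 25 fell, where 11% of all genes rose and 12.5% fell, with a median of −0.68 for the 33 genes and 0.01 for all genes. Scd2 at −1.80 ± 0.13 (adjusted p = 2.46e-08), Msmo1 at −1.22 ± 0.09 (adjusted p = 2.09e-08), Scd1 at −1.22 ± 0.15 (adjusted p = 8.94e-06) and Fdps at −1.21 ± 0.14 (adjusted p = 4.11e-06) led. Hmgcs1 was −0.97 ± 0.13 (adjusted p = 3.69e-05) and Srebf2 −0.69 ± 0.10 (adjusted p = 9.42e-05), while Srebf1 was −0.27 ± 0.17 (adjusted p = 0.287). With a common median 1 rose and 28 fell, and without scaling 1 rose and 23 fell. IP20D-3 against IP14D-1 gave 8 calls. There 6 genes rose and 2 fell in IP20D-3, beside 4.87% and 4.33% of all genes, and the median was 0.03. Sc5d (0.64 ± 0.10, adjusted p = 0.000712), Pmvk (0.62 ± 0.15, adjusted p = 0.0152) and Acaca (0.59 ± 0.11, adjusted p = 0.0027) were higher in IP20D-3, and Scd2 (−0.74 ± 0.13, adjusted p = 0.0013) and Msmo1 (−0.34 ± 0.09, adjusted p = 0.0172) were lower. The direction of the count turned without scaling, to 0 higher and 20 lower. Sc5d turned to −0.11 with probe sets averaged, and another of its probe sets, above background in each group, gave −0.52. The call of Pmvk was lost without IP14D-1 replicate 2 (adjusted p = 0.0659) or IP20D-3 replicate 2 (adjusted p = 0.0573), both at 0.58, and that of Msmo1 without IP14D-1 replicate 1 (−0.33, adjusted p = 0.0628), IP14D-1 replicate 2 (−0.33, adjusted p = 0.0661) or IP20D-3 replicate 1 (−0.22, adjusted p = 0.0822).

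Other genes of these pathways, outside the 34, were counted from lists. Of all genes, 29.9% to 30.4% rose and 22.9% to 24.7% fell against MEF over the 4 lines. In IP14D-101 against CL11, 6.04% of all genes rose and 5.47% fell. Of 15 further sterol genes 10 were measured. Against MEF 2 rose and 7 fell in IP20D-3, 2 rose and 6 fell in IP14D-101, 0 rose and 7 fell in IP14D-1, and 0 rose and 6 fell in CL11. Lipa, the lysosomal lipase that frees cholesterol taken up in lipoproteins, was −2.91 in IP20D-3, −2.71 in IP14D-101, −2.56 in IP14D-1 and −2.79 in CL11. Insig2, the second SCAP anchor, was −1.21, −1.47, −1.002 and −1.21 in that order. In IP14D-101 against CL11, 3 of the 10 rose and 0 fell, namely Npc2, a lysosomal cholesterol carrier, at 0.37 ± 0.11 (adjusted p = 0.0272), Erg28, which in yeast tethers the demethylation enzymes at carbon 4, at 0.46 ± 0.10 (adjusted p = 0.00532) and Rdh11, a retinol dehydrogenase, at 0.96 ± 0.11 (adjusted p = 1.41e-05). Of 9 genes of cholesterol efflux and its sensor LXR 8 were measured. Against MEF 2 rose and 4 fell in IP20D-3, 2 rose and 3 fell in IP14D-101, 1 rose and 3 fell in IP14D-1, and 1 rose and 2 fell in CL11. Ch25h averaged 13.94 in MEF and 11.26 in IP14D-1, and lay under background in IP20D-3 (10.53), IP14D-101 (9.39) and CL11 (9.85). Mylip averaged 12.91 in IP20D-3, 13.26 in IP14D-101, 12.57 in IP14D-1 and 13.05 in CL11, against 14.31 in MEF. Apoe, the lipoprotein that carries cholesterol out, rose by 5.57 ± 0.12 in IP20D-3, 4.05 ± 0.12 in IP14D-101, 4.85 ± 0.12 in IP14D-1 and 4.31 ± 0.12 in CL11. Abca1, the efflux pump, was −1.87 ± 0.11 in IP20D-3 (adjusted p = 5.15e-11), −1.23 ± 0.11 in IP14D-101 (adjusted p = 2.22e-08), −0.12 ± 0.11 in IP14D-1 (adjusted p = 0.404) and −0.19 ± 0.11 in CL11 (adjusted p = 0.182). Set against CL11, Abca1 was −1.68 ± 0.11 in IP20D-3 (adjusted p = 9.43e-09), −1.04 ± 0.11 in IP14D-101 (adjusted p = 9.36e-06) and 0.07 ± 0.11 in IP14D-1 (adjusted p = 0.751).

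Of 30 further fatty acid genes 27 were measured. Against MEF 8 rose and 11 fell in IP20D-3, 13 rose and 9 fell in IP14D-101, 9 rose and 12 fell in IP14D-1, and 12 rose and 10 fell in CL11. Acacb, the mitochondrial form of acetyl-CoA carboxylase, averaged 13.41 ± 0.33 in IP20D-3, 13.57 ± 0.39 in IP14D-101, 13.04 ± 0.07 in IP14D-1 and 13.74 ± 0.11 in CL11, against 7.73 ± 0.92 in MEF, where it lay under the background of 11.04. Mlxipl, the glucose-responsive factor ChREBP, averaged 12.42 ± 0.56 in IP20D-3, 12.67 ± 0.36 in IP14D-101, 11.86 ± 0.25 in IP14D-1 and 12.16 ± 0.22 in CL11, against 8.32 ± 1.91 in MEF, also under background. Fads3, another gene of the Fads family, went the other way, with means under background in the 4 lines (9.26 ± 1.09 in IP20D-3, 9.62 ± 1.44 in IP14D-101, 10.89 ± 0.35 in IP14D-1 and 10.10 ± 0.92 in CL11), against 14.93 ± 0.15 in MEF. Elovl7, an elongase of long chains, averaged 13.52 ± 0.09 in IP20D-3, 12.83 ± 0.33 in IP14D-101, 13.35 ± 0.25 in IP14D-1 and 12.30 ± 0.47 in CL11, against 10.001 ± 1.21 in MEF. Of the 27, 6 rose and 0 fell in IP14D-101 against CL11 (all genes 6.04% and 5.47%). In IP14D-101 against IP14D-1, 12 of the 27 rose and 3 fell (all genes 14.9% and 13.1%). Of 12 fatty acid oxidation genes 11 were measured, of which 1 rose and 1 fell in IP14D-101 against CL11, and 3 rose and 4 fell in CL11 against MEF. Acadvl, the very long chain acyl-CoA dehydrogenase, was −2.12 in IP20D-3, −1.46 in IP14D-101, −1.51 in IP14D-1 and −1.55 in CL11 against MEF. On the isoprenoid branches 7 of 8 genes were measured, and Fntb, a subunit of protein farnesyltransferase, rose against MEF by 2.33 in IP20D-3, 1.55 in IP14D-101, 2.22 in IP14D-1 and 1.84 in CL11.

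Other measures also differed between some of the lines. The summed signal of 12 amino acid and endoplasmic reticulum stress genes was 1289550 to 1424400 in IP20D-3, 1021330 to 1149770 in IP14D-101, 1416920 to 1585920 in IP14D-1 and 1034370 to 1186890 in CL11, against 1937980 to 2126880 in MEF. Of these 12 genes 2 rose and 8 fell in IP14D-101 against IP14D-1 (all genes 14.9% and 13.1%), and 8 rose and 2 fell in IP20D-3 against IP14D-101 (all genes 11% and 12.5%). In IP14D-101 against CL11, 1 of the 12 rose and 0 fell. The summed signal of 10 endoderm markers was 13575 to 15974 in IP20D-3, 127345 to 140782 in IP14D-101, 17517 to 20320 in IP14D-1 and 157651 to 162546 in CL11, against 85362 to 93003 in MEF, with Afp, Apoa1, Apob and Ttr at or below background in each group. Of the 10 endoderm markers 0 rose and 0 fell in IP14D-101 against CL11, and 6 rose and 0 fell in IP14D-101 against IP14D-1. The ratio of the 3′ to the 5′ actin probe sets, a measure of RNA integrity, averaged 1.28 in IP20D-3, 1.22 in IP14D-101, 1.37 in IP14D-1, 1.21 in CL11 and 1.16 in MEF. That of Gapdh averaged 0.79 in IP20D-3, 0.79 in IP14D-101, 0.85 in IP14D-1, 0.81 in CL11 and 0.82 in MEF. The part of these measures, and of the fibroblast markers in IP14D-1, in the differences between lines was not tested.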

How the data were processed

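RNA of 15 samples was measured on Affymetrix arrays, and the deposited values are probe set intensities on a linear scale, made by the authors with the MAS5 method per the submitters' processing notes; further settings are not given in the sources used here. The 45101 probe sets, less 64 controls, were matched to the platform annotation, in which 34945 named 1 gene, 932 several and 9160 none. Each array was scaled to a common mean after trimming 2%, and log2(signal + 16) was taken. For each gene the brightest probe set was kept, giving 18193 genes, and 5 group means were fitted with limma 3.58.1 (lmFit and eBayes with a trend) in R 4.3.3, with Benjamini-Hochberg adjustment within each of 10 comparisons and a threshold of 0.05. The fit was tested on simulated data. As background, 39 olfactory receptor genes were used, at their 95th percentile (signal 2087). Depth does not apply to arrays, and 3 arrays a group limit the precision.

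The genes and lists were chosen with earlier results of these data known. Values on each array were given for the up to 4 genes of each role whose group means ranged widest, and for Hmgcs1, Insig1, Srebf1, Srebf2, Fasn, Scd1 and Scd2; of each other list up to 4 changed genes of widest range could be named, and Erg28 was named after its value was seen. Alternatives were another scaling, pseudocount, probe set choice, dim filter, fit or set of samples. Samples with the same replicate number did not deviate together (30 pairs, mean correlation −0.0075, of which 2 were over 0.1), so the numbers were not taken as pairs.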

Additional observations from a re-analysis of the deposited data

Results flagged for a closer look

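Srebf2 and Sqle moved in opposite directions against the shared MEF arrays in different lines, and the direct comparisons of those lines passed the test. Srebf2 was −0.41 in IP14D-1 and 0.38 in CL11 against MEF, a difference of −0.79 for IP14D-1 minus CL11. It was 0.63 in IP14D-101 against MEF, which made 1.03 for IP14D-101 minus IP14D-1. Sqle was 0.30 in IP14D-101 against MEF, −0.46 in IP20D-3, −0.47 in IP14D-1 and −0.38 in CL11. The differences were 0.68 for IP14D-101 minus CL11, 0.77 for IP14D-101 minus IP14D-1 and −0.75 for IP20D-3 minus IP14D-101. The values above are log2 changes with a limma adjusted p under 0.05. Without scaling of the arrays Sqle was −0.27 in IP14D-101 and Srebf2 was −0.034 in CL11 and 0.057 in IP14D-101 against MEF, so the opposite directions depend on the scaling, and Sqle for IP14D-101 minus IP14D-1 (0.29) no longer passed. No cause was tested.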

How the results depend on the processing

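The 33 genes had 204 calls over the 10 comparisons. Pseudocounts of 64 and 1000 and a filter on dim genes kept all 204, quantile normalization kept 203 and lost 1, fits of only the 2 groups kept 195 and lost 9, and a fit with no trend kept 186 and lost 18. A common median for scaling kept 190, lost 12 and reversed 2, no scaling kept 138, lost 50 and reversed 16, and averaging probe sets kept 150, lost 45 and reversed 9. Leaving out probe sets whose names end in x_at, s_at or a_at left 31 genes, and kept 183 of 196 calls, lost 11 and reversed 2. With no scaling the reversed values were, against MEF, −0.15 (Acaca), −0.19 (Acly) and −0.029 (Mvd) in IP20D-3, −0.0053 (Pmvk) and −0.27 (Sqle) in IP14D-101, and −0.043 (Fdft1) and −0.034 (Srebf2) in CL11. For IP14D-101 minus IP14D-1 they were −0.18 (Cyp51), −0.027 (Fads1), −0.12 (Lbr), −0.12 (Sc5d), −0.012 (Scap) and −0.011 (Stard4), and for IP20D-3 minus IP14D-1 −0.18 (Fads1), −0.074 (Fads2) and −0.20 (Srebf2). With probe sets averaged they were −0.016 (Acss2), −0.11 (Fdft1) and 0.077 (Fdps) in CL11 against MEF, 0.29 (Fdps) in IP14D-1 against MEF, 0.21 (Fdps) and 0.56 (Scap) in IP14D-1 against CL11, 0.34 (Scap) in IP20D-3 against CL11, −0.19 (Sc5d) for IP14D-101 minus IP14D-1 and −0.11 (Sc5d) for IP20D-3 minus IP14D-1. The other probe sets averaged in for Fdps and Scap lay below background in each group, as did part of those for Fdft1 and Acss2. For Sc5d, a further probe set above background in each group gave −0.58 for IP14D-101 minus IP14D-1 and −0.52 for IP20D-3 minus IP14D-1. Without probe sets that can match other transcripts Lss was −0.11 and Msmo1 0.059 in IP14D-101 against MEF. With a common median Msmo1 was 0.059 and Nsdhl 0.048 there. Counts of calls moved with no scaling to 20 for IP20D-3 against CL11 (instead of 12), 7 for IP14D-101 against CL11 (instead of 13, all higher), 8 for IP14D-1 against CL11 (instead of 18), 14 for IP14D-101 against IP14D-1 (instead of 28, of which 11 higher instead of 27) and 20 for IP20D-3 against IP14D-1 (instead of 8). With probe sets averaged they were 5 for IP20D-3 against CL11 and 11 for IP14D-1 against CL11. They were then 19 for IP14D-101 against IP14D-1 (19 higher), 19 for IP20D-3 against IP14D-101 (instead of 26, 18 lower instead of 25) and 4 for IP20D-3 against IP14D-1. The last comparison had 5 without x_at, s_at and a_at probe sets and 4 with no trend. Leaving out 1 array at a time gave 22 to 25 calls in IP20D-3, 24 to 26 in IP14D-101, 20 to 23 in IP14D-1 and 25 to 27 in CL11 against MEF. Against CL11 it gave 10 to 17 in IP20D-3, 12 to 14 in IP14D-101 (12 to 14 higher) and 11 to 18 in IP14D-1, the lowest without CL11 replicate 1. It gave 25 to 28 for IP14D-101 against IP14D-1 (24 to 27 higher), 21 to 25 for IP20D-3 against IP14D-101 (20 to 23 lower) and 4 to 8 for IP20D-3 against IP14D-1, with 5 without IP14D-1 replicate 1, 4 without IP14D-1 replicate 2 and 5 without IP20D-3 replicate 3. Over these 1224 refitted calls 1114 were kept, 110 lost and 0 reversed. With the replicate number as a block 203 calls were kept and 1 was lost, with 7 calls for IP20D-3 against IP14D-1 and 25 for IP20D-3 against MEF, and the other counts as before. The causes were not tested.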
